A study of Mus musculus with 6 samples.

Results

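Oas1c, Oas1d and Oas1e are mouse members of the 2'-5' oligoadenylate synthetase 1 family. They were followed here in the ovaries of newborn C57Bl/6J mice over the first days after birth. The 5 probes whose annotation begins with 2'-5' oligoadenylate synthetase 1C, 1D or 1E were taken out of 8272 on the array. Oas1c had 3 of these probes, Oas1d 1 and Oas1e 1. A single further probe of the family, for Oas1a, was on the array and served for comparison. The genes had been picked with their high day 4 over day 0 and day 2 over day 0 ratios in view, so the values of the 5 probes are a description and carry no p-value.

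Oligoadenylate synthetases of the classical kind bind double-stranded RNA and then join ATP into short chains with 2'-5' bonds. These chains switch on RNase L, a ribonuclease that cuts viral and cellular RNA, and interferon raises the level of the synthetases. In mice the Oas1 gene has been copied into a cluster, and some of the copies are known from oocytes rather than from antiviral defence. Oas1d is known to lack the synthetase activity and to bind Oas1a, the active enzyme, and females without Oas1d have reduced fertility.

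Ovary RNA of day 2 and of day 4 was each labelled with Cy5 and set against ovary RNA of day 0 (less than 1 day after birth) labelled with Cy3. There were 3 arrays per age, each with a later RNA of its own, which the labels call biological replicates. The number of animals behind an RNA is not given in the sources used here, so a p-value measures the spread between these RNAs. The study asked which transcripts differ when follicles form and start to grow. All mice were of the same strain, with no treatment named, and the samples are whole ovaries, which hold oocytes, somatic ovarian cells and blood. Each clone was measured 4 times per array, and the log2 ratio given for an array is the mean of these repeats.

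Day 2 arrays had values for all 8272 probes. Day 4 arrays 1, 2 and 3 had values for 7775, 8272 and 5630 probes. Which way the day 2 ratios run is open to doubt. Arrays 1 and 2 of day 2 ran against each other over all probes (Pearson's r −0.675, 8272 probes that are no independent replicates), although the labels give both the same dyes. For this reason the day 2 means appear a second time below, after turning the sign of 1 of these arrays. As deposited, day 2 arrays 1 and 2 had r 0.02 and 0.23 with day 2 array 3. Against day 4 arrays 1, 2 and 3, day 2 array 1 had r 0.27, 0.18 and 0.02. Day 2 array 2 had r 0.11, 0.24 and 0.22 against them. Day 4 arrays 1 and 2 had r 0.752 over 7775 probes. Day 0 RNA of 1 preparation went onto array 3 at both ages, and these 2 arrays had r 0.767 over 5630 probes. The orientation of the dyes was the same throughout, so a dye effect of a single gene cannot be told apart from its change against day 0. An oligoadenylate synthetase signal that comes from cross-hybridisation of near-identical family members was not tested, since the clone sequences were not used here.

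The family lies in 1 run on chromosome 5 in the mouse gene table. Between Dtx1 and Rph3a its order is Oas2, Oas3, Oas1e, Oas1c, Oas1b, Oas1f, Oas1h, Oas1g, Oas1a and Oas1d, with a pseudogene (Gm7573) before Oas1d. Of these 10 genes, 4 had a probe on the array. Oas1e and Oas1c are neighbours, while Oas1d lies at the other end of the run beside Oas1a. The 3 genes are thus not 1 block, and Oas1a stands between them.

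The promoter windows of Oas1c and Oas1a are shown because these genes took different courses and both windows were in the RefSeq promoter table (build GRCm38.p6). Oas1d and Oas1e were matched to no window there. Each window covers 250 bases before and 50 bases after the annotated start, read 5′ to 3′ on the gene's own strand, which is the minus strand for both. Oas1c lies at chr5:120812465-120812764 and Oas1a at chr5:120907476-120907775. Capitals mark matches, on either strand, to the core of the interferon-stimulated response element (GAAA, any 2 letters, GAAA).
Oas1c: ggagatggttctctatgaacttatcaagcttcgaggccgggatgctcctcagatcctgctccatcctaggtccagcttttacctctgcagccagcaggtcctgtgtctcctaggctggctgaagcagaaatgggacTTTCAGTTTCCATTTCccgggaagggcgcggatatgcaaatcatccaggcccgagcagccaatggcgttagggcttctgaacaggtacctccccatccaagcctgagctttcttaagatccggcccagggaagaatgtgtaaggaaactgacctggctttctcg
Oas1a: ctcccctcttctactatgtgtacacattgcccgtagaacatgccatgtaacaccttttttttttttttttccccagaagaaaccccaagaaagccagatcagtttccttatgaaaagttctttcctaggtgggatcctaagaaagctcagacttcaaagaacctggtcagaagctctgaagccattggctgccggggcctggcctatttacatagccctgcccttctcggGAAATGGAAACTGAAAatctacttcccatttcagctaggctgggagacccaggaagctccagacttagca

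Each window held 2 overlapping matches, which together form a run of 16 letters. The run of Oas1a, GAAATGGAAACTGAAA, begins at position −20 from the start. Oas1c holds the same 16 letters on the opposite strand, printed as TTTCAGTTTCCATTTC, beginning at position −114. The core was found in 3.45% of the 32544 promoter windows. The 16-letter run was found in 7 windows, of the genes Apol9a, Apol9b, Oas1a, Oas1c and Oas1g. 130 bases of the Oas1c window lie inside the annotated span of its neighbour Oas1b, a transcribed pseudogene in this table. Neither window held a match to the E-box CANNTG, which was found in 72.3% of all windows and includes CAGCTG (16.4%) and CAGGTG (20.3%). The letters TAATTA (5.29% of windows) and TAATTG (8.01%), elements of the oocyte factor NOBOX, had no match in either window, on either strand. A match is a description of letters and not of binding.

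At day 4 all 5 probes were higher than day 0 on every array that measured them, and 3 of them, 1 per gene, were between 8.27-fold and 8.91-fold. Over all probes tested, 28.4% were likewise higher on every day 4 array with a value, and the choice of the genes used this contrast. Oas1a lay below day 0 on all 3 day 4 arrays. Day 2 ratios of the 5 probes were smaller on average, between 0.31 and 1.22 on the log2 scale, and differed from array to array. 2 of 5 probes were higher than day 0 on every day 2 array, against 9.13% of all probes tested. That count was 3 of 5 (21.9% of all probes) with day 2 array 1 turned and 0 of 5 (14.2%) with array 2 turned.

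Oas1d was measured by 1 probe (BG068909) with values on all 6 arrays. Its log2 ratios over day 0 were 0.31, 1.95 and 1.41 on day 2 arrays 1, 2 and 3. On day 4 arrays 1, 2 and 3 they were 2.87, 3.25 and 3.02. Every array was above day 0, day 2 array 1 was the lowest, and the 2 ages did not overlap. All 12 repeat measurements at day 2 and all 12 at day 4 were positive. The mean log2 ratio was 1.22 ± 0.84 (SD, n = 3) at day 2, which is 2.33-fold. At day 4 it was 3.05 ± 0.19 (SD, n = 3), which is 8.27-fold. The spread between the day 4 arrays was much smaller than that between the day 2 arrays. With the sign of day 2 array 1 turned the day 2 mean was 1.02, and with that of array 2 turned it was −0.076. By size of the mean log2 ratio Oas1d ranked 10 at day 4 among 8135 probes tested. Its day 2 rank was 5 as deposited, 144 with array 1 turned and 5131 with array 2 turned.

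Oas1c, a family member that is likewise known from the ovary, was measured by 3 probes that did not behave alike. The probe BG080903 had values on all arrays. Its log2 ratios were 0.66, 1.80 and 0.80 on day 2 arrays 1, 2 and 3. They were 3.05, 3.43 and 2.92 on day 4 arrays 1, 2 and 3. All 6 arrays were above day 0 and the lowest day 4 array was above the highest day 2 array. The mean was 1.09 ± 0.62 (SD, n = 3) at day 2 and 3.13 ± 0.27 (SD, n = 3) at day 4, which is 8.77-fold. Turning day 2 array 1 gave a day 2 mean of 0.65, and turning array 2 gave −0.11.

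The probe BG080492 of Oas1c was the dimmest of the 5, with a mean log2 intensity of 7.82 to 10.2 over the 5 arrays that measured it. Its log2 ratios were −0.10, 1.07 and 0.82 on the day 2 arrays and 1.93 and 2.23 on day 4 arrays 1 and 2. Day 4 array 3 gave no value. Day 2 array 1 was at the level of day 0, and both day 4 arrays were above every day 2 array. Its mean was 0.60 ± 0.62 (SD, n = 3) at day 2 and 2.08 ± 0.21 (SD, n = 2) at day 4, which is 4.23-fold. Turning day 2 array 1 or array 2 gave day 2 means of 0.66 and −0.12.

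The probe BG081542 of Oas1c stood apart from the other probes of that gene. Its log2 ratios were −1.59, 1.41 and 1.11 on the day 2 arrays and 0.61 and 3.01 on day 4 arrays 2 and 3. Day 4 array 1 gave no value. The ages overlapped, since day 4 array 2 was below day 2 arrays 2 and 3. On that same array BG080903 read 3.43 and BG080492 read 2.23, so the 3 probes of Oas1c spanned a range there that was wider than the spread of their own repeats. The repeats of BG081542 on day 4 array 2 ran between 0.19 and 1.12. Its mean log2 intensity on that array was 14.1, at the 95.3 percentile of the array. Its mean log2 ratio was 0.31 ± 1.65 (SD, n = 3) at day 2 and 1.81 ± 1.70 (SD, n = 2) at day 4, which is 3.51-fold, so its day 4 value rests on 2 arrays that differ by more than the mean itself. Its day 2 mean was 1.37 with array 1 turned and −0.63 with array 2 turned.

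Oas1e, the third of the genes and the neighbour of Oas1c, was measured by 1 probe (BG080810). Its log2 ratios were −0.26, 2.58 and 1.18 on the day 2 arrays and 3.33 and 2.98 on day 4 arrays 1 and 2, with no value on day 4 array 3. Both day 4 arrays were above all day 2 arrays, although day 2 array 2 came near to them. Of its repeats, 8 of 12 were positive at day 2 and 8 of 8 at day 4. The mean was 1.17 ± 1.42 (SD, n = 3) at day 2 and 3.16 ± 0.24 (SD, n = 2) at day 4, which is 8.91-fold. Some of these values were marked by the authors, and without the marked ones fewer than 2 remained at an age. With day 2 array 1 turned the day 2 mean was 1.34, and with array 2 turned it was −0.55.

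**Figure D1:**
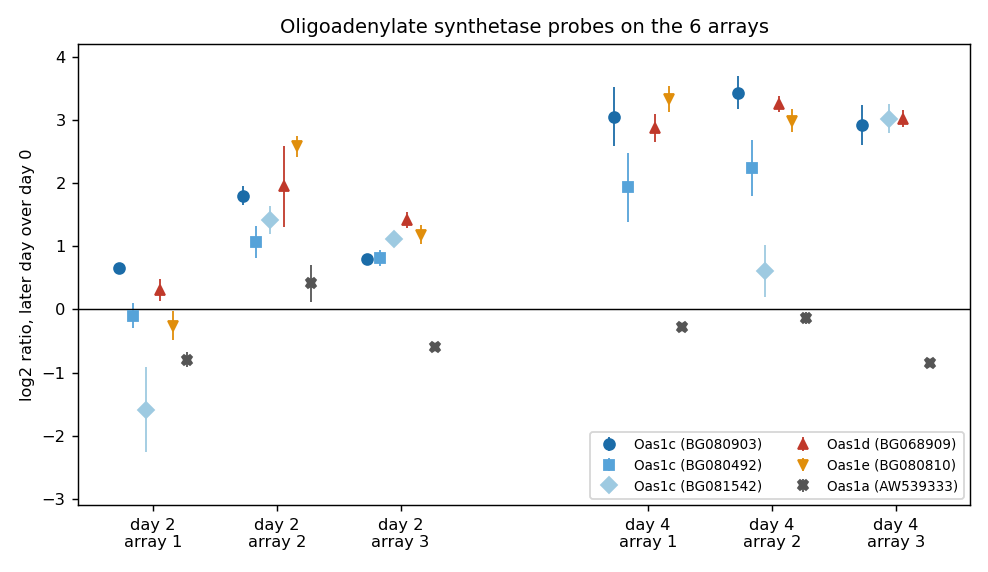
Log2 ratio over day 0 (vertical axis) of the 5 probes of Oas1c, Oas1d and Oas1e and of the Oas1a probe on each of the 6 arrays (horizontal axis); points are the mean of up to 4 repeats and bars their SD. The 12 member points at day 4 run from 0.61 to 3.43, and Oas1a lies below 0 on all 3 day 4 arrays.

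**Figure D2:**
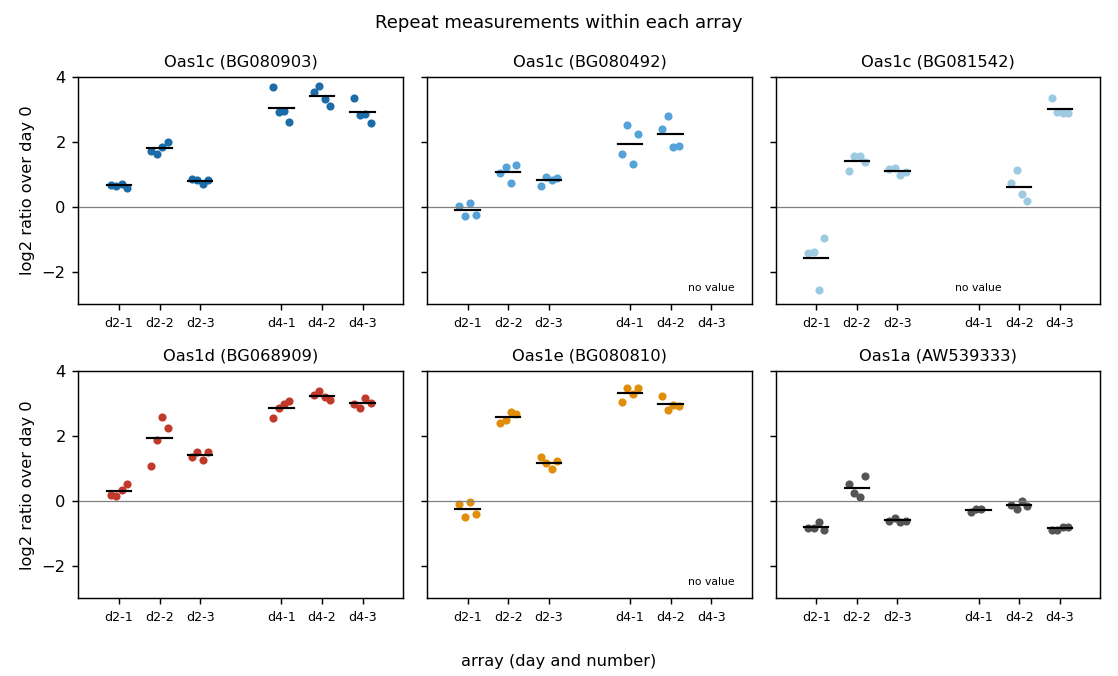
Each repeat log2 ratio over day 0 (vertical axis, dots) on each array (horizontal axis, d2 for day 2 and d4 for day 4), 1 panel per probe, with the mean of the repeats as a black bar. Among the day 2 arrays, array 1 has the lowest mean of the repeats in all 6 panels, and BG081542 differs between day 4 arrays 2 and 3 by more than its repeats do.

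By array, 2 of 5 member probes were positive on day 2 array 1, and 5 of 5 on day 2 arrays 2 and 3. At day 4 the counts were 4 of 4, 5 of 5 and 3 of 3 on arrays 1, 2 and 3. The median log2 ratio of the member probes on these day 4 arrays was 2.96, 2.98 and 3.01. Day 2 array 1 was the lowest array for 4 of the 5 probes by a wide margin and for BG080903 by a small one. The test across all probes, limma with Benjamini-Hochberg adjustment, called 39 of 8135 probes (0.479%) higher at day 4 than at day 0 and 0 lower. That count was 0 without any 1 of the day 4 arrays (where 339 to 588 had an unadjusted p under 0.05). Leaving out day 2 array 1 gave 71 probes, 1 of them lower, and leaving out day 2 array 3 gave 16. 2 of the 5 member probes, Oas1d and Oas1c BG080903, were among the 39, from which nothing is read, since the genes were chosen on this contrast. At day 2 the same test called 0 probes (0%), with 231 probes at an unadjusted p under 0.05.

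Day 4 was also set against day 2 by taking the difference of their ratios over day 0, so that any dye effect common to the arrays drops out. The log2 difference was 1.82 (3.54-fold) for Oas1d, with a mean of 3.05 at day 4 and 1.22 at day 2. For Oas1e it was 1.99 (3.96-fold). For the Oas1c probes BG080903, BG080492 and BG081542 it was 2.04 (4.12-fold), 1.48 (2.80-fold) and 1.50 (2.83-fold). In 4 of 5 probes every day 4 array was above every day 2 array, the exception being BG081542, against 5.32% of all probes tested. It was 4 of 5 also with day 2 array 1 turned (12.6% of all probes) or array 2 turned (11%). With array 1 turned the log2 difference was 2.03 for Oas1d, 1.82 for Oas1e, and 2.49, 1.42 and 0.44 for BG080903, BG080492 and BG081542. With array 2 turned it was 3.12 for Oas1d, 3.71 for Oas1e, and 3.24, 2.20 and 2.44 for the same Oas1c probes. limma called 0 of 8135 probes (0%) in this comparison, with 215 at an unadjusted p under 0.05. All of these values are made from the ratios against day 0 that chose the genes.

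Array 3 allows a comparison in which the day 0 RNA is the same at both ages. There Oas1d was 3.02 at day 4 and 1.41 at day 2, a log2 difference of 1.61 (3.04-fold). Oas1c BG080903 was 2.92 at day 4 and 0.80 at day 2, a difference of 2.12 (4.34-fold). BG081542 was 3.01 at day 4 and 1.11 at day 2, a difference of 1.90 (3.74-fold). Oas1a was −0.84 at day 4 and −0.60 at day 2, a difference of −0.25. The 3 member probes measured on both arrays were higher at day 4, and Oas1a was not, with 1 RNA per age and so no test. The authors had marked the day 2 array 3 values of Oas1d and BG080903 with a flag. On that array 1664 probes were marked, against 481 on day 4 array 3. With marked values left out, the day 2 mean was 1.13 for Oas1d and 1.23 for BG080903.

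Oas1a, an interferon-inducible synthetase of the family, did not share the day 4 rise of the other genes. Its Pearson's r with the member probes ran from 0.09 (BG081542, 5 arrays) to 0.71 (Oas1e, 5 arrays). Its probe read −0.79, 0.41 and −0.60 on day 2 arrays 1, 2 and 3 and −0.27, −0.13 and −0.84 on day 4 arrays 1, 2 and 3. The day 4 mean was −0.42 ± 0.27 (SE, n = 3), which is 0.749-fold, with an adjusted p of 0.714 by limma. The day 2 mean was −0.33 ± 0.27 (SE, n = 3), with an adjusted p of 0.966, and it was 0.20 with day 2 array 1 turned and −0.60 with array 2 turned. Neither age differed from day 0 past the threshold, and the spread between arrays leaves a modest change in either direction unresolved. The Oas1a probe was bright, with a mean log2 intensity of 12.7 to 13.7 on the day 4 arrays, so that it was not a signal at the floor.

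Taking the difference between a member probe and Oas1a on the same array removes whatever the 2 probes share on that array, and its sign on day 2 array 1 or 2 turns with that array. For Oas1c BG080903 this difference was 1.46, 1.39 and 1.40 on day 2 arrays 1, 2 and 3 and 3.32, 3.56 and 3.76 on the day 4 arrays. Its SD over the day 2 arrays was 0.04, against 0.62 for BG080903 itself; for the other 4 member probes the SD of the difference was 0.43 to 1.29. At day 4 the SD of the difference was larger than that of the member itself in 3 of 5 probes, at 0.37 against 0.19 for Oas1d, 0.34 against 0.24 for Oas1e and 2.20 against 1.70 for BG081542. For Oas1d the difference was 1.10, 1.53 and 2.01 at day 2 and 3.15, 3.38 and 3.86 at day 4. Oas1e stood above Oas1a by 0.54, 2.17 and 1.78 at day 2 and by 3.60 and 3.12 at day 4. BG080492 stood above it by 0.69, 0.66 and 1.42 at day 2 and by 2.20 and 2.36 at day 4. Of the 5 probes only BG081542 was below Oas1a on any array, where the difference was −0.79, on day 2 array 1. The unequal change of the members and Oas1a was thus seen on every day 4 array with a value.

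**Figure D3:**
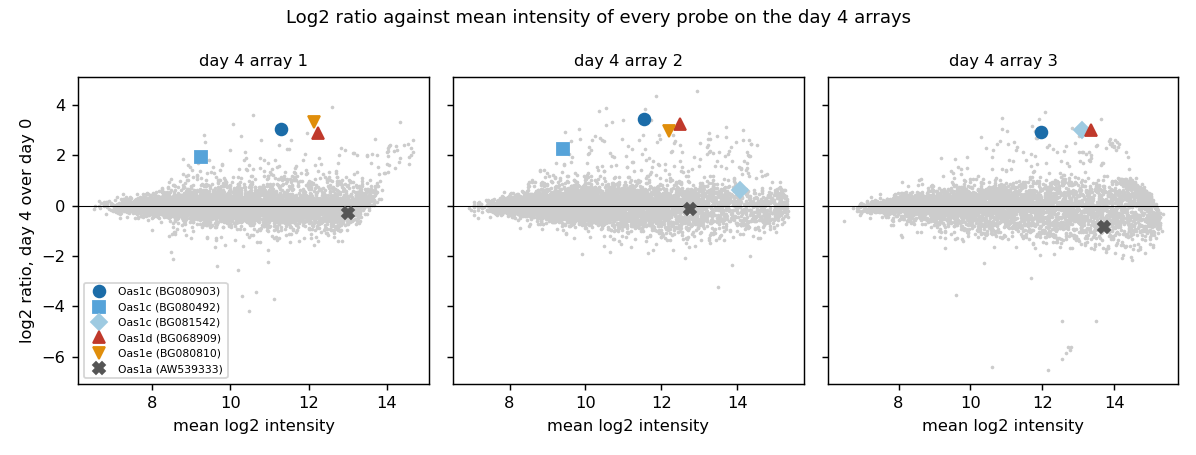
Log2 ratio of day 4 over day 0 (vertical axis) against the mean log2 intensity of both channels (horizontal axis) on day 4 arrays 1, 2 and 3, with all probes in grey and the oligoadenylate synthetase probes coloured. Of the 12 member points, 11 lie at the upper edge of the cloud at a log2 ratio of 1.93 or more, and BG081542 on array 2 lies within it at 0.61, while Oas1a lies at −0.27, −0.13 and −0.84.

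Among the 5 probes, the pair with values on all arrays, Oas1d and Oas1c BG080903, kept close together, with a root mean square difference of 0.32 over the 6 arrays. The largest gap between them on an array was 0.61, on day 2 array 3, where Oas1d was higher. Oas1d and Oas1e differed by a root mean square of 0.46 over 5 arrays. BG080903 and Oas1e differed by 0.61 over 5 arrays. The 3 pairs of Oas1c probes differed by 0.87 (BG080903 and BG080492, 5 arrays), 1.12 (BG080492 and BG081542, 4 arrays) and 1.63 (BG080903 and BG081542, 5 arrays). By this measure of size the probes of Oas1c were thus farther from each other than Oas1d, Oas1e and BG080903 were. In course over the arrays, BG080903 and BG080492 had a Pearson's r of 0.949 (5 arrays). BG081542 had r 0.547 with BG080903 (5 arrays) and 0.612 with BG080492 (4 arrays).

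The genes with a pattern most like that of the family were found by Pearson's r with the mean profile of Oas1d and Oas1c BG080903, over 5267 other probes with values on all 6 arrays, of which 3125 had a gene name. This r is a description over 6 arrays that fall into 2 ages and of which 2 share a day 0 RNA, and it carries no p. The median r over these probes was −0.05, and 53 probes, 27 with a gene name, reached 0.9. The 8 named genes with the highest r were Arhgef12 (0.999), Pfkfb3 (0.985), Zfp296 (0.983), Zdhhc13 (0.979), Dnah9 (0.979), Atp6v0a1 (0.969), Depdc7 (0.968) and Camta1 (0.967). The order rests on the doubted day 2 arrays: with array 1 turned 1 of these 8 genes was among the 8 highest and with array 2 turned 2 were, while their r stayed at 0.808 or above and at 0.913 or above. The 8 genes were picked by their values on these same arrays, so the day 4 p-values below are not independent of that choice. These genes differed widely in size. Arhgef12 read −0.06, 1.40 and 0.59 on the day 2 arrays and 2.28, 2.65 and 2.38 on the day 4 arrays. Its day 4 mean was 2.44 ± 0.27 (SE, n = 3, limma adjusted p = 0.0310), but its 3 other probes had day 4 means of −0.26 to −0.33, so that the pattern belongs to 1 clone. Zdhhc13, a palmitoyltransferase, reached 2.43 ± 0.33 at day 4 (SE, n = 3, adjusted p = 0.0548) and did not pass. Pfkfb3, an enzyme that controls glycolysis, followed the same course at a smaller size, with 0.93 ± 0.14 (SE, n = 3, adjusted p = 0.0714). Depdc7 rose by 0.81 ± 0.10 (SE, n = 3, adjusted p = 0.0443), and the other 4 genes had day 4 means of 0.37 to 1.03 that did not pass. A second probe of Dnah9 was at 0.09, against 0.69 for the probe named here, and a second probe of Zfp296 at 0.33, against 0.37. The calls of Arhgef12 and Depdc7 were lost without any 1 of the day 4 arrays.

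**Figure D4:**
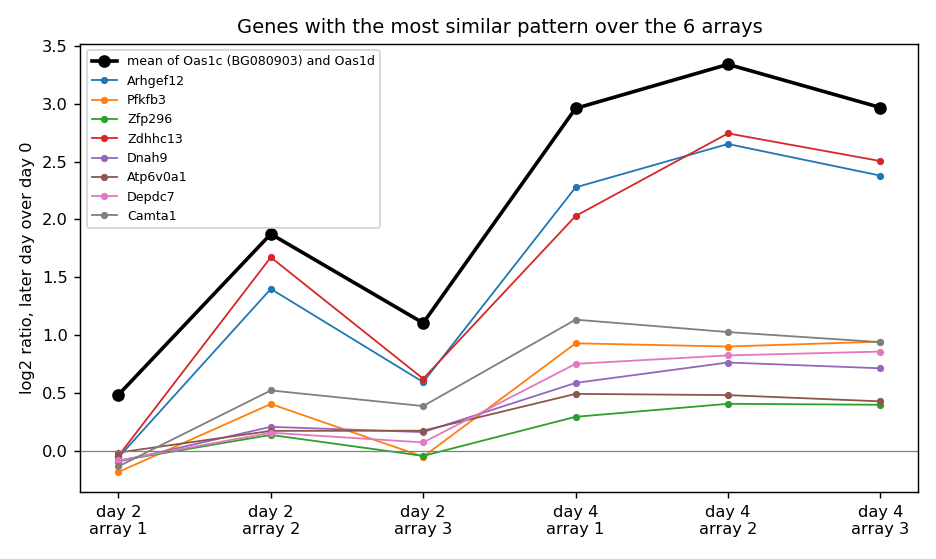
Log2 ratio over day 0 (vertical axis) on the 6 arrays (horizontal axis) for the mean of Oas1d and Oas1c BG080903 (black) and for the probes of the 8 named genes with the highest Pearson's r with it. Arhgef12 and Zdhhc13 run closest below the black line at day 4, at means of 2.44 and 2.43, and the other 6 genes stay between 0.37 and 1.03.

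When closeness in size was asked for instead, a measure added after the values were seen, the nearest named genes not yet given were Gdf9, Ddias and Astl. Gdf9, a growth factor that oocytes release to act on granulosa cells, differed from the mean profile by a root mean square of 0.33 and had r 0.956. Its probe BG080261 read 0.64, 1.42 and 1.41 on the day 2 arrays and 2.90, 2.79 and 3.10 on the day 4 arrays. The other probes of Gdf9, BG067640 and C86021, averaged 1.30 and 0.57 at day 2 and 3.38 and 1.81 at day 4. Astl, a protease of the egg, differed by 0.59 and read −0.24, 0.81 and 0.82 on the day 2 arrays and 2.78, 2.77 and 3.06 on the day 4 arrays. Ddias differed by 0.50 and averaged 2.67 at day 4.

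The family's textbook pathway, the response to interferon and double-stranded RNA, did not move with the 3 genes. Of 70 listed genes 18 were measured, by 20 probes, and 0 of these passed the limma test in either direction at day 4 (3 had an unadjusted p under 0.05). 7 of 20 probes had a positive day 4 mean, and their median log2 ratio was −0.06, against 4054 of 8135 and a median of −0.00 over all probes tested. The means ran from −0.75 to 0.54. The probes with the smallest p-values among the lower ones were Psme1, a proteasome activator subunit, at −0.69 (adjusted p = 0.202), Stat2, which carries the signal of type I interferons, at −0.75 (adjusted p = 0.378), and Abce1, known as an RNase L inhibitor, at −0.57 (adjusted p = 0.622). Among the higher ones they were the kinases Jak1 at 0.43 (adjusted p = 0.407) and Jak2 at 0.23 (BG080085, adjusted p = 0.602), and Tapbp, of antigen presentation, at 0.33 (adjusted p = 0.708). The other 2 probes of Jak2 were at −0.07 and −0.45. On day 4 arrays 1, 2 and 3, 0 probes of the list reached the median of the member probes on that array. That median belongs to probes picked with high day 4 ratios in view, so nothing about the list is read from this count.

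Genes known from the oocyte, the cell in which the 3 genes are known to be expressed, gave another picture. Of 40 listed genes 15 were measured, by 22 probes, and all 22 had a positive mean at day 4, with a median log2 ratio of 1.16. limma called 6 of the 22 higher and 0 lower. Over all probes tested, 4054 of 8135 had a positive day 4 mean, with a median of −0.00, and 39 (0.479%) were called higher and 0 lower. H1f8, the linker histone of oocytes, was at 2.39 (adjusted p = 0.00862), Gdf9 BG080261 at 2.93 (adjusted p = 0.00874) and Astl at 2.87 (adjusted p = 0.0103). Nlrp14, of the NLR family, was at 3.64 (adjusted p = 0.0329), and 2 probes of Btg4, which helps clear maternal mRNA, were at 1.97 (adjusted p = 0.0488) and 1.52 (adjusted p = 0.0410). Other probes of these genes did not pass. Gdf9 BG067640 was at 3.38 (adjusted p = 0.0762), Gdf9 C86021 at 1.81 (adjusted p = 0.128) and Btg4 BG067220 at 0.95 (adjusted p = 0.423). The calls depend on the arrays: 0 of the 22 passed without any 1 of the day 4 arrays, with the sign of day 2 array 2 turned or without array 3 of both ages, while all probes that could be fitted stayed positive in each of these. Without day 2 array 3, 3 passed. Earlier results of these data already showed oocyte genes higher at day 4, so the list is no independent evidence. In a whole ovary, fewer cells of a type and less RNA per cell cannot be told apart, and this holds for more cells and more RNA as well.

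At day 4 the median of the member probes was above that of the oocyte genes. The members were picked with high day 4 ratios in view, so nothing is read from this order. On day 4 arrays 1, 2 and 3 the members' median was 2.96, 2.98 and 3.01, over 4, 5 and 3 probes. That of the oocyte list was 1.06, 1.43 and 1.93. On each of these arrays 3 oocyte probes, of 22, 22 and 17 with a value, reached the members' median. BG081542, at 0.61 on day 4 array 2, was below the oocyte median of that array. At day 2 the members' median was −0.10, 1.80 and 1.11 on arrays 1, 2 and 3, and that of the oocyte list was −0.04, 0.57 and 0.21. On day 2 array 1, 14 of 22 oocyte probes were at or above the members' median. Both were near day 0 on day 2 array 1 and highest, among the day 2 arrays, on array 2.

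No marker of another cell type passed the test. Of 10 erythroid genes 5 were measured, by 5 probes, and all had a negative day 4 mean, with a median log2 ratio of −0.88 and 0 past the limma test (4 had an unadjusted p under 0.05). The list's median on the day 4 arrays was −1.28, −0.72 and −1.12. On the day 2 arrays it was −0.24, 1.29 and −0.26, so that day 2 array 2 was the highest for this list too. The part of this in the members' ratios was not tested. Of 12 granulosa cell genes only Nr5a2 was measured, at 0.33 (adjusted p = 0.528) and 0.09 (adjusted p = 0.878) with its 2 probes. Of 17 leukocyte genes only Lyz2 was measured, at −0.45 (adjusted p = 0.805) at day 4, so that the leukocyte content of the ovaries could hardly be followed.

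**Figure D5:**
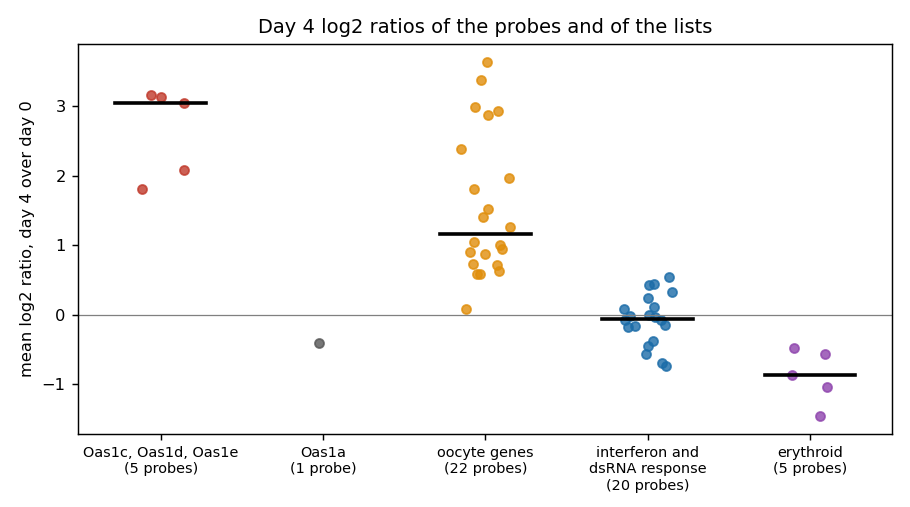
Mean log2 ratio of day 4 over day 0 (vertical axis) for each probe of Oas1c, Oas1d and Oas1e, of Oas1a and of the oocyte, interferon and double-stranded RNA response, and erythroid lists (horizontal axis, with the number of probes); black bars are medians and the side-to-side scatter has no meaning. The oocyte probes are all above 0 with a median of 1.16, the interferon probes lie around −0.06, and the erythroid probes are all below 0.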

How the data were processed

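Per the labels, ovary RNA was measured on spotted 2-colour arrays of mouse cDNA clones, each comparison pair being hybridised so that a clone had 4 values per array. Per the file headers, the authors deposited each value as a log2 ratio of the later day in Cy5 over day 0 in Cy3, with a mean log2 intensity. The deposited p-values, which the authors gave per probe over the repeats of 1 array, were not used. R 1.7.1 is named in the submitters' processing notes. How background was corrected and ratios were normalized is not given in the sources used here. A value table that the authors also deposited differed from the mean of the repeats by at most 0.0075 and was tried in its place.

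Repeats were averaged per array, without normalizing again. Probes with values on at least 2 arrays of each age (8135 of 8272) were fitted with limma 3.58.1 (R 4.3.3), giving each age its own mean over all 6 arrays, 2-sided, with Benjamini-Hochberg adjustment over all probes and a threshold of 0.05. The SE pools both ages, so that day 4 tests also carry the spread found at day 2. Precision is limited by how many arrays there are: the median SE was 0.187 at day 4 and 0.174 at day 2. On simulated data with 200 changed probes of 8135, the fit of day 4 against day 0 recovered 42.5%, 78% and 89% at log2 changes of 1, 2 and 3, with 5, 15 and 10 false calls. The simulated arrays varied independently of each other, whereas the real arrays numbered 3 share a day 0 RNA, so these shares may not hold for the real data.

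Gene names came from a mouse gene table (1776 probes), by hand (55 probes) or from the annotation alone (3056 probes), and 3385 probes had none. The members and lists were chosen with earlier results of these data known. The text names every oligoadenylate synthetase probe, list genes past the test, the 3 of each of these lists with the smallest p in each direction, and the 8 genes most like the members by Pearson's r; genes named by root mean square difference, and the Oas1a differences by array, were chosen after the values were seen. Promoter windows are RefSeq's (GRCm38.p6).

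Alternatives were median centring, scale normalization, trended and robust variances, complete probes only, leaving out values the authors marked, the median of the repeats, the value table, the replicate number as a block, the turned sign of day 2 array 1 or 2, leaving out array 3 of both ages, and leaving out each array in turn.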

Additional observations from a re-analysis of the deposited data

How the results depend on the processing

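At day 4 the 5 member probes stayed above day 0 under all alternatives that could be fitted, from 0.86 (BG081542, with a replicate block, against 1.81 without it) to 3.87 (Oas1e). Turning or leaving out a day 2 array, trended and robust variances, and complete probes only cannot change a day 4 mean, so they did not check it. Oas1e could not be fitted with the values the authors marked left out, since fewer than 2 then remained at an age. Scale normalization moved 4 of the 5 member probes by more than 1 SD, to 3.31 for Oas1d, 3.87 for Oas1e, and 3.42 and 2.52 for Oas1c BG080903 and BG080492. At day 2 the sign of the means depends on day 2 array 2: with it turned, they were −0.076 for Oas1d, −0.55 for Oas1e, and −0.11, −0.12 and −0.63 for Oas1c BG080903, BG080492 and BG081542. Leaving out 1 array at a time, the day 2 mean of BG081542 ran from −0.24 to 1.26, being −0.24 without array 2 and −0.09 without array 3. That of Oas1e ran from 0.46 without array 2 to 1.88 without array 1, that of BG080492 from 0.36 to 0.95, that of BG080903 from 0.73 to 1.30 and that of Oas1d from 0.86 to 1.68, each lowest without array 2 and highest without array 1. The causes were not tested.

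The 39 probes called at day 4 became 96 with scale normalization, 6 with trended and robust variances, 21 with a replicate block, 0 with day 2 array 2 turned (897 at an unadjusted p under 0.05) and 0 without array 3 of both ages (433 unadjusted). Leaving out 1 array at a time gave 0 to 71: 0 without day 4 array 1, 2 or 3 (339, 380 and 588 unadjusted), 71 without day 2 array 1, 57 without day 2 array 2 and 16 without day 2 array 3. The 6 oocyte probes called became 10, 2, 0 and 0 with scale normalization, trended and robust variances, day 2 array 2 turned (18 unadjusted) and without array 3 of both ages (16 unadjusted), and 0 to 8 without 1 array. Of the calls over all probes, 8 were lower with scale normalization and 1 with a replicate block. Leaving out day 2 array 1 gave 1 lower and leaving out day 2 array 2 gave 3, against 0 in the main fit. Calls at day 2, at day 4 against day 2 and in the interferon list, and the day 4 value of Oas1a, kept their side of the threshold and direction. The arrays numbered 3 share a day 0 RNA and the others do not. Deviations of same-numbered arrays correlated at 0.365, 0.053 and 0.515 over 5270 probes and those of other pairs at −0.42 to 0.09, so the numbers were not taken to pair the arrays. With 3 arrays per age, and 2 for some members at day 4, small changes cannot be resolved.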
